A study of Oryza sativa Japonica Group with 5 samples.

Results

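Photosystem I is the chlorophyll-protein complex of the thylakoid membrane that takes electrons from plastocyanin on the lumen side and passes them, with the energy of light, to ferredoxin on the stromal side. Its reaction centre proteins are made in the plastid, while the antenna proteins (Lhca) and many small core subunits (Psa) are encoded in the nucleus and imported. In leaves the nuclear genes are among the most abundant messages of green cells, and their products are needed in fixed proportions in the assembled complex.

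The 10 genes described here encode 4 antenna proteins, Lhca1 to Lhca4, and 6 core subunits, PsaD, PsaE, PsaF, PsaG, PsaH and PsaK, of rice. They were taken by identifier from the 36475 loci of the deposited tables, and all 10 were found. The names come from the list that defined the set. A reference gene table bears out the place of PsaH alone, lacks the names of 8 others, and gives the synonym PSAG to a gene on chromosome 5, not to the chromosome 9 locus used here as PsaG.

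The study sequenced leaf RNA of wild type rice (3 libraries) and of the mutant pls4 (2 libraries), all Oryza sativa Japonica Group. The labels name mesophyll as the cell type and call the mutant treatment a knockdown, with "Non knockdown" for wild type. They give neither the altered gene nor the plants' age, growth conditions or number, so the altered gene could not be looked at. Nothing says that replicates came from separate plants, and p-values therefore reflect only how far these libraries spread, in part perhaps for technical reasons.

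Values are FPKM, fragments scaled to gene length and to the number of mapped fragments, so levels can be set beside each other between genes. They summed to between 736527 and 758853 per library, and between 18393 and 18538 loci reached an FPKM of 1. Read depth is unknown. A change is the pls4 mean of log2(FPKM + 1) less the wild type mean, given with its standard error, and a gene was called when limma's test, adjusted by Benjamini-Hochberg over 19637 tested loci, gave a p under 0.05. All 10 genes passed the filter on low values in every library.

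Every gene of the set was lower in both pls4 libraries than in any of the 3 wild type libraries. By group means, 5 stood between 78.6% and 82.6% of wild type (Lhca1, Lhca3, Lhca4, PsaD and PsaH). PsaE was at 88.9%, Lhca2 at 71.6%, PsaF at 66.1%, PsaG at 65.0% and PsaK at 44.3%. Together the 10 genes took 3.35%, 3.71% and 3.76% of summed FPKM in wild type, and 2.92% and 2.64% in pls4. Of the 10, 7 were called lower (Lhca2, Lhca3, PsaD, PsaF, PsaG, PsaH and PsaK), 3 did not pass (Lhca1, Lhca4 and PsaE), and none was called higher. Over all tested loci 18.5% were called lower and 33.4% higher. Groups that did not overlap in the lower direction made up 24.5% of tested loci, against 10 of 10 genes here. These tissue libraries cannot tell fewer cells of a type from less RNA per cell.

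The 10 genes are all abundant. Among the 164 tested loci whose FPKM averaged 500 or more, a group that holds all 10 genes, 47.0% were called lower, and in 54.9% both pls4 libraries lay below every wild type library. The median change of the 10 genes was -0.35, against -0.29 for the abundant loci and 0.15 for all tested loci. The set is thus close to other abundant loci in its median change, and PsaK is the member farthest from that median.

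**Figure D1:**
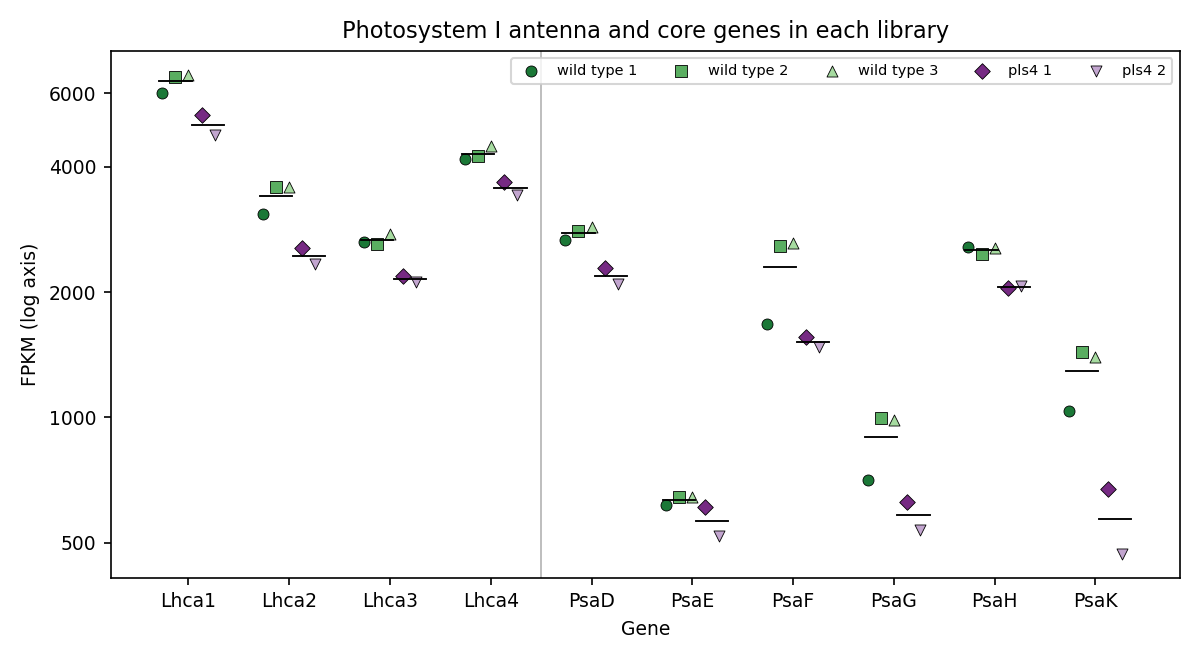
FPKM of the 10 genes (log axis) in each of the 3 wild type and 2 pls4 libraries, with horizontal lines at the group means. Both pls4 points lie below all wild type points for every gene, by the smallest margin in PsaE (609 against 614) and by the widest margin relative to its level in PsaK.

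The antenna of photosystem I is a belt of Lhca proteins that bind chlorophyll and hand excitation to the core. In plants such as pea and Arabidopsis they sit as the dimers Lhca1 with Lhca4 and Lhca2 with Lhca3. Lhca1 (Os06g0320500) was the most abundant gene of the set, with 6022, 6574 and 6656 FPKM in wild type and 5337 and 4768 in pls4. The groups did not overlap, yet the change of -0.35 ± 0.13 did not pass (limma, adjusted p = 0.0612). Its partner Lhca4 (Os08g0435900) had 4179, 4248 and 4478 FPKM in wild type and 3679 and 3426 in pls4. The pls4 libraries were again the lowest, and the change of -0.28 ± 0.12 did not pass (limma, adjusted p = 0.0827).

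Lhca2 (Os07g0577600) fell from 3082, 3569 and 3570 FPKM to 2547 and 2330, a change of -0.48 ± 0.12 (limma, adjusted p = 0.0151). Wild type replicate 1 was the lowest of its group but still above both pls4 libraries. Lhca3 (Os02g0197600), the partner of Lhca2 in that dimer, went from 2633, 2607 and 2753 FPKM to 2182 and 2110, a change of -0.31 ± 0.10 (limma, adjusted p = 0.0385). The wild type libraries of Lhca3 lay close together, with a coefficient of variation of 2.92%.

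Of the core subunits, PsaD, PsaE and PsaH lie on or towards the stromal side. PsaD is the main docking site of ferredoxin in plants and cyanobacteria. PsaD (Os08g0560900) fell from 2670, 2800 and 2868 FPKM to 2280 and 2089, a change of -0.35 ± 0.11 (limma, adjusted p = 0.0313), and wild type and pls4 were clearly apart. PsaE, a small stromal subunit that also takes part in ferredoxin reduction, moved least. PsaE (Os07g0435300) had 614, 645 and 644 FPKM in wild type and 609 and 518 in pls4, so pls4 replicate 1 lay just under the wild type range and replicate 2 well under it. The change of -0.17 ± 0.10 had a 95% interval from -0.41 to 0.06 (limma, adjusted p = 0.182).

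PsaH, a membrane subunit known from Arabidopsis for its part in state transitions, was the steadiest member within each group. PsaH (Os05g0560000) went from 2559, 2475 and 2550 FPKM to 2044 and 2065, a change of -0.30 ± 0.10 (limma, adjusted p = 0.0407). Its wild type libraries varied by 1.83% (coefficient of variation), and it was the only member in which pls4 replicate 2 was not the lower of the 2 pls4 libraries.

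PsaF, PsaG and PsaK are membrane subunits at the rim of the core. PsaF forms the docking site of plastocyanin on the lumen side in algae and plants, and PsaG and PsaK flank the antenna. These 3 genes, grouped after their values were seen, had more spread in wild type than the other members. PsaF (Os03g0778100) had 1680, 2581 and 2621 FPKM in wild type and 1559 and 1475 in pls4. Wild type replicate 1 thus lay far nearer to pls4 than to the other wild type libraries. The change was -0.57 ± 0.20, just inside the threshold (limma, adjusted p = 0.0493), and the pls4 mean was 58.3% of the mean of wild type replicates 2 and 3 but 90.3% of replicate 1.

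PsaG (Os09g0481200) showed the same arrangement, with 707, 996 and 983 FPKM in wild type and 626 and 537 in pls4. Its change was -0.61 ± 0.17 (limma, adjusted p = 0.0199), and the pls4 mean was 82.3% of wild type replicate 1. PsaK (Os07g0148900) fell from 1038, 1433 and 1398 FPKM to 672 and 470, the lowest pls4 values relative to wild type in the set. Its change was -1.18 ± 0.20 with a 95% interval from -1.65 to -0.72 (limma, adjusted p = 0.00233), and the pls4 mean was 55.0% even of wild type replicate 1.

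**Figure D2:**
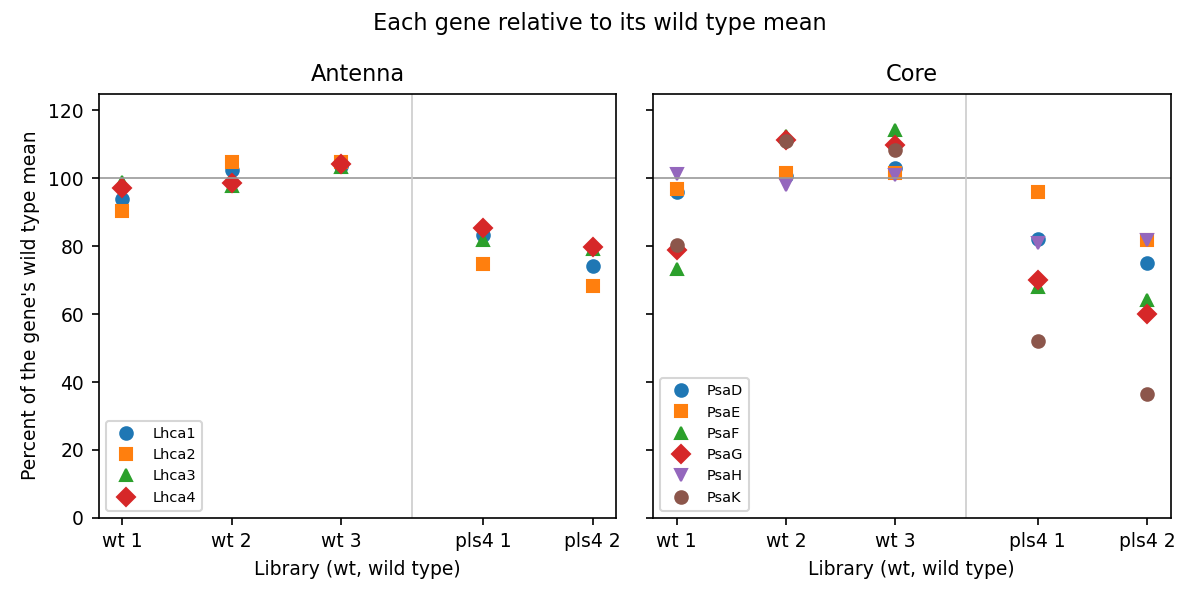
Level of each gene in each library as a percent of that gene's wild type mean, antenna genes on the left and core genes on the right (wt, wild type). In wild type replicate 1 PsaF, PsaG and PsaK stand at 73.2%, 78.9% and 80.5%, while the other 7 genes stand between 90.5% and 101%.

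**Figure D3:**
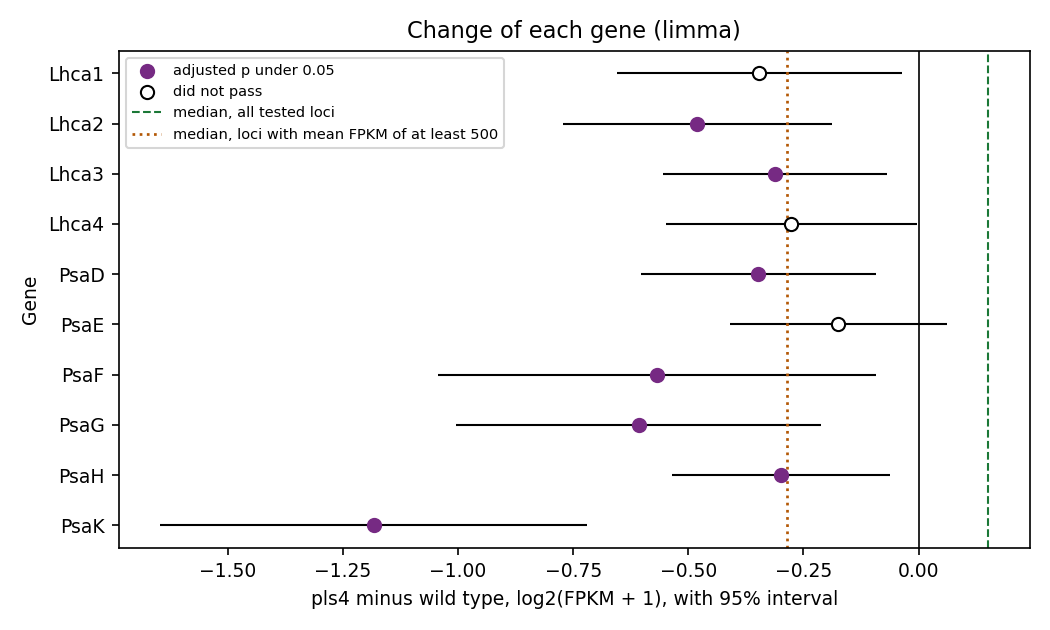
Change of each gene in pls4 against wild type, in log2(FPKM + 1), with its 95% interval; filled points had an adjusted p under 0.05. The dashed line marks the median of all tested loci (0.15) and the dotted line that of loci averaging 500 FPKM or more (-0.29), and the PsaK interval alone lies wholly below the dotted line.

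PsaK was the one call of the set that held in all 14 alternatives, with changes from -1.59 to -0.93 and adjusted p from 2.89e-06 to 0.0155 (limma). The other 6 calls had adjusted p between 0.0151 and 0.0493 (limma). PsaK alone was called when wild type replicate 2 or wild type replicate 3 was left out. Of all tested loci 15.9% and 15.4% were called lower in those fits, a larger share than of the members. Without wild type replicate 1 there were 5 calls, including PsaF at -0.78, against 17.7% of all tested loci. Leaving out pls4 replicate 1 or pls4 replicate 2 leaves 1 pls4 library, so only effect sizes are given. The median change of the members was then -0.42 and -0.30.

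The scaling between libraries was 1 of several settings that changed how many genes were called. Scaling each library by its median ratio lowered the median of all tested loci from 0.15 to 0.00; all 10 genes were then called lower, with a median of -0.52, as were 24.5% of tested loci. After quantile normalization 2 were called (PsaG and PsaK), against 21.7% of tested loci, a share close to that of the members. The median was then -0.059, and Lhca1 and Lhca4 stood on the other side of 0, at 0.03 and 0.09. Relative to the median of all tested loci in the unscaled fit, changes ranged from -0.33 for PsaE to -1.33 for PsaK.

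**Figure D4:**
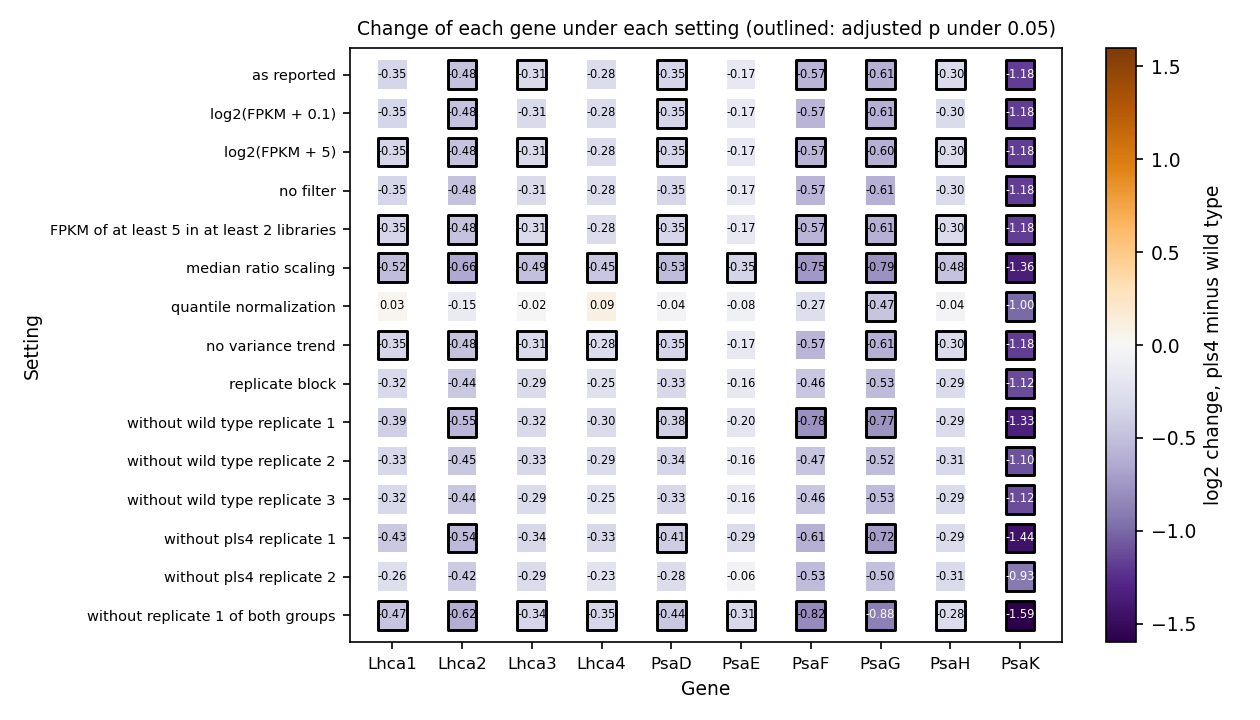
Change of each gene on the log2 scale (numbers and colour) in the reported fit and under each of 14 alternatives, with a black outline where the adjusted p was under 0.05. The PsaK column is outlined throughout, whereas the number of outlined genes runs from 1 to 10 between settings.

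The order of levels in wild type, by mean FPKM, was Lhca1 (6417 ± 344), Lhca4 (4302 ± 156), Lhca2 (3407 ± 282), PsaD (2780 ± 101), Lhca3 (2664 ± 78), PsaH (2528 ± 46), PsaF (2294 ± 532), PsaK (1290 ± 219), PsaG (896 ± 164) and PsaE (634 ± 18; SD, n = 3). Neighbours did not overlap in that order except PsaD with Lhca3 and PsaH with PsaF. PsaF exceeded PsaH in wild type replicates 2 and 3 but not in replicate 1.

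In pls4 the order down to PsaF was the same, with PsaD and Lhca3 again overlapping. The lower end closed up. PsaG (582 ± 63), PsaK (571 ± 143) and PsaE (564 ± 64; SD, n = 2) overlapped, and their order differed between the libraries. PsaK ranked between 61 and 80 among all loci in the wild type libraries and 109 and 171 in the pls4 libraries, whereas Lhca1 kept rank 7 or 8 in every library.

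Ratios within a library do not depend on a scale factor for that library, though quantile normalization can change them. The antenna genes summed to 1.56 and 1.58 times the core genes in wild type replicates 2 and 3, to 1.72 times in wild type replicate 1, and to 1.76 and 1.77 times in pls4. Replicate 1 of wild type was thus nearer to pls4 than to its own group. The sum of PsaF, PsaG and PsaK over that of PsaD, PsaE and PsaH was 0.586, 0.846 and 0.825 in wild type and 0.579 and 0.531 in pls4, so there too wild type replicate 1 stood beside pls4. PsaK over PsaG behaved otherwise. That ratio was 1.47, 1.44 and 1.42 in the wild type libraries, all alike, and 1.07 and 0.874 in pls4. The last 2 ratios were chosen after the values were seen and carry no test.

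Of 5 further ratios, none could reach the threshold. The test used doubles the smaller one-sided p, which over 10 arrangements of the libraries gives no p below 0.2. Lhca1 over Lhca4 was 1.49 ± 0.05 in wild type and 1.42 ± 0.04 in pls4, with overlapping groups (exact permutation test, p = 0.4, adjusted p = 0.5). Lhca2 over Lhca3 was 1.28 ± 0.10 and 1.14 ± 0.04, with both pls4 libraries lower (exact permutation test, p = 0.2, adjusted p = 0.5). PsaD over PsaE was 4.38 ± 0.06 and 3.89 ± 0.20, again with pls4 lower (exact permutation test, p = 0.2, adjusted p = 0.5); after quantile normalization the log2 difference turned from -0.17 to 0.03. PsaF over PsaD overlapped between groups, at 0.822 ± 0.167 and 0.695 ± 0.016 (exact permutation test, p = 0.6, adjusted p = 0.6). The overlap came from wild type replicate 1, at 0.629 against 0.922 and 0.914 in the others. Without that library the log2 difference went from -0.22 to -0.40, and without wild type replicate 2 or 3 it was -0.13. PsaH over PsaD overlapped as well, at 0.910 ± 0.042 and 0.943 ± 0.065 (exact permutation test, p = 0.4, adjusted p = 0.5).

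**Figure D5:**
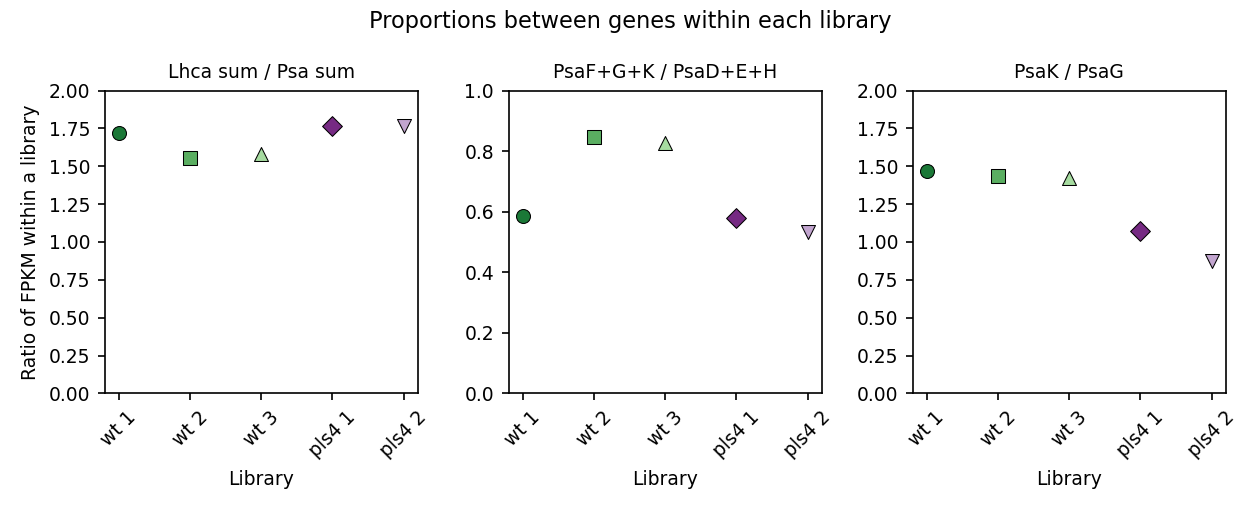
Ratios of FPKM within each library (wt, wild type): the antenna sum over the core sum, the sum of PsaF, PsaG and PsaK over that of PsaD, PsaE and PsaH, and PsaK over PsaG. Wild type replicate 1 lies near the pls4 libraries in the left and middle panels and with the other wild type libraries in the right panel.

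Wild type replicate 1 differed from replicates 2 and 3 in few loci by as much as in PsaF. Its log2 ratio to the mean of the others was -0.63 for PsaF, -0.49 for PsaG and -0.45 for PsaK. Over the 164 abundant loci that ratio had a median of -0.01 and a 5th percentile of -0.57. The 4 listed mesophyll markers summed to 22069 FPKM in wild type replicate 1 against 29206 and 29309 in the others, so the lower values there were not limited to photosystem I. Most of that gap lay in 1 marker, at 9723 FPKM against 16673 and 15642 in replicates 2 and 3. Of the 4, Lhcb1 (Os01g0600900) alone was not lowest in replicate 1, at 10621 FPKM against 10335 and 11445.

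Most other listed genes of photosystem I and its partners were lower as well. All 5 further photosystem I genes of a list (3 core subunits and 2 antenna proteins, whose names no reference here bears out) were called lower. Their median change was -1.37, beyond the -0.35 of the 10 members, over a range from -6.05 to -0.57. The 2 most abundant, at 4927 and 2579 FPKM in wild type, changed by -0.64 and -0.57. The 2 least abundant, at 90.5 and 109 FPKM, changed by -1.37 and -1.735. After quantile normalization or with the replicate block, 3 were called lower. A difference between those lists was not tested. The widest change was that of Os12g0189400, singled out after its values were seen, with 819, 1682 and 1629 FPKM in wild type and 20.8 and 17.0 in pls4 (-6.05 ± 0.30, limma, adjusted p = 6.04e-06). Wild type replicate 1 was the lowest of its group there too, but far above pls4.

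Of 6 listed genes for carriers next to photosystem I and related proteins, 4 were called lower and 2 did not pass. Of those 2, 1 had a change above 0 (0.29), and it is not listed as a carrier itself. Without wild type replicate 2 or wild type replicate 3, 2 were called lower. After quantile normalization, or with the replicate block, 1 was called lower. PetE (Os06g0101600), plastocyanin, the electron donor of photosystem I, fell from 3720 ± 211 to 2348 ± 155 FPKM (-0.66 ± 0.12), a call lost with the replicate block. LFNR1 (Os06g0107700), a ferredoxin-NADP reductase, fell from 2521 ± 127 to 1885 ± 258 FPKM (-0.42 ± 0.12). That call was lost with no filter, with the replicate block, or when wild type replicate 2 or wild type replicate 3 was left out. Without pls4 replicate 2, which leaves 1 pls4 library, the LFNR1 change was -0.28, given as an effect size without a call. PetC (Os07g0556200), the Rieske protein of the cytochrome complex before plastocyanin, stood at 3529 ± 22 and 3210 ± 77 FPKM (limma, adjusted p = 0.321).

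For photosystem II, 7 of 8 Lhcb antenna genes were called lower (median change -0.68) and 3 of 4 further subunits (median -0.67). Quantile normalization left 4 Lhcb calls and 2 of the further subunits, and with the replicate block 2 of each were called. Leaving out wild type replicate 2 or wild type replicate 3 left 2 of the further subunits called. Lhcb1 (Os01g0600900), the most abundant of these, fell by 1.11 ± 0.14 on the log2 scale, more than each member except PsaK, a difference not tested. The other loci listed as Lhcb1 lay on both sides of it, with changes of -3.245 and -0.42. After quantile normalization the calls of PetE, LFNR1 and Lhcb1 (Os01g0600900) were lost. GLK1 (Os06g0348800) and GLK2 (Os01g0239000), transcription factors that promote photosynthesis genes in rice and Arabidopsis, were not lower. GLK1 was at 56.6 ± 6.7 and 67.5 ± 5.1 FPKM (limma, adjusted p = 0.103). GLK2 rose from 45.9 ± 2.1 to 63.1 ± 10.5 FPKM (0.44 ± 0.11, limma, adjusted p = 0.0144). Both other scalings removed that call, as did the replicate block or leaving out wild type replicate 2. Without pls4 replicate 2 the GLK2 change was 0.27.

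Markers of the leaf and of other cells moved in different directions. The 4 mesophyll markers were abundant in all libraries, none at 0, and all were called lower, though 2 were after quantile normalization. They include Lhcb1 (Os01g0600900). Their sum went from between 22069 and 29309 FPKM in wild type to between 10199 and 12825 in pls4. All 4 senescence markers, including SGR (Os09g0532000), which acts in chlorophyll breakdown, were called higher, with sums of 36.6 to 49.3 FPKM in wild type and 120 to 162 in pls4. All 3 markers of vascular tissue and secondary walls were called higher, from sums of 1.77 to 3.07 FPKM to sums of 9.20 and 18.97, but without either pls4 library 1 of the 3 was called. The root marker LSI1 (Os02g0745100) was called higher, at 13.5 ± 1.8 and 18.4 ± 2.5 FPKM, while the seed marker and the marker of dividing cells did not pass, and none of these markers was at 0. Their part in the change of the photosystem I genes was not tested.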

How the data were processed

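The authors deposited 1 table of FPKM per library, per the file headers, which the deposit itself calls RPKM. The tool TopHat2 2.1.1 and the build IRGSP-1.0 are named per the submitters' processing notes. Not given in the sources used here are the counting tool, annotation, gene lengths, strand setting and scaling. No label gives a batch, and the absolute depth is unknown, so no counting interval is given. Between any 2 libraries at most 0.276% of loci at 5 FPKM or more in both held equal listed values.

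Groups follow the sample titles. The fit used limma 3.58.1 under R 4.3.3, with all 5 libraries, no covariate and an intensity-dependent variance prior, on log2(FPKM + 1) of loci that reached 1 FPKM in 2 or more libraries. Ratios were tested with SciPy 1.17.1. A simulated pls4 to wild type contrast of 18653 loci was used as a check. In it the fit recovered 88% of genes changed by 1 and 98% of those changed by 2 (log2), with 3.12% false calls. Only 100 genes were changed by each amount. The check therefore does not cover the smaller changes of most members, or a share of changed loci as large as that called here. The members and lists were chosen with earlier results of these data known. All members were named; genes of the other photosystem I, carrier, GLK, Lhcb and photosystem II lists were named where their list held at most 6 genes or where they were the most abundant or most changed of it, and only where chromosome and gene order in the RefSeq table (ASM3414082v1, tolerance 0.05) bore out the name, as for 18 of 48 pairs. The marker lists lay outside this rule; SGR and LSI1 were named from them, and Os12g0189400 by its identifier, after their values were seen. Only 1 of the 36475 identifiers is itself in that table. The alternatives, 13 planned and 1 added after seeing the data, changed the pseudocount, filter, scaling, variance model or libraries.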

Additional observations from a re-analysis of the deposited data

How the results depend on the processing

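The number of members called lower was 7 as reported, against 18.5% of all tested loci. It was 4 with log2(FPKM + 0.1), against 18.4%. With no filter it was 1, against 13.3%, a share close to that of the members. It was 2 after quantile normalization, against 21.7%, and 10 with median ratio scaling, against 24.5%. Leaving out each wild type library in turn gave 1 to 5, against 15.4% to 17.7%, with the fewer libraries of such fits. No member was called higher under any of the 14 alternatives. The median change of the members, -0.35, became -0.52 with median ratio scaling and -0.059 after quantile normalization. It ranged from -0.42 to -0.30 over the left-out libraries. Without replicate 1 of both groups, an alternative chosen after seeing the data that leaves 1 pls4 library, it was -0.46. Quantile normalization also turned the direction of Lhca1 (0.027), Lhca4 (0.093) and PetC (0.16); the cause was not tested. The log2 difference in the ratio of PsaH to PsaD ranged from -0.021, without pls4 replicate 2, to 0.12; that of PsaD to PsaE was 0.033 after quantile normalization. All loci called numbered 10208, 64.3% of them higher, against 47.1% with median ratio scaling and 53.0% after quantile normalization, and every alternative stayed within 1.5 times that number.

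Wild type and pls4 share the replicate numbers 1 and 2. Deviations of same-numbered libraries correlated at -0.095 and -0.138. The deviations of 2 pls4 libraries from their mean mirror each other, so these values cannot decide whether the numbers mark pairs. The main fit did not take them as pairs. With a replicate block 1 member (PsaK) was called lower, against 14.7% of all tested loci. The median change of the 10 was then -0.32, and 7294 loci were called over both directions.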
